A study of Mus musculus with 16 samples.

Results

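Transcripts of 9 genes that carry, answer and restrain cytokine signals through STAT3 were measured in neutrophils before and after abdominal sepsis. They are the receptor chain genes Il6ra, Il6st, Il10ra and Il17ra, the transcription factor gene Stat3, the kinase gene Pim1, and the feedback inhibitor genes Socs1, Socs3 and Cish. They were chosen by symbol for their place in this signalling route, with earlier results of these data known. All 9 were found among the 49315 genes in the files. All 9 passed the filter on low counts in every comparison.

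Interleukin-6 binds its own receptor chain, encoded by Il6ra, which then engages the shared signalling chain encoded by Il6st. JAK kinases attached to that chain phosphorylate STAT3, which enters the nucleus and switches on genes such as Socs3 and Pim1. SOCS3 binds back to the receptor and JAK complex and ends the signal, SOCS1 inhibits the JAK kinases directly, and CISH is induced by STAT5 downstream of several growth factors and cytokines. The chain encoded by Il10ra also signals to STAT3, whereas that encoded by Il17ra uses a separate adaptor. In neutrophils the receptor for G-CSF, encoded by Csf3r, also activates STAT3, and SOCS3 is a known brake on it.

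The neutrophils were sorted from blood and lung as Ly6G+/CD11b+/CD45.2+ cells and their RNA was sequenced after amplification of full-length cDNA. The mice were WT or lacked integrin αD (αD KO, both strains from a commercial supplier), and were either untreated (0h) or sampled 12 hours after cecal ligation and puncture (CLP), an operation done in males aged 8 to 12 weeks. The αD KO is a knockout of the whole animal and is not restricted to neutrophils. Each of the 8 groups of genotype, tissue and time has 3 count files under 2 samples. Sample 1 has 2 files, here libraries 1a and 1b, and sample 2 has 1, here library 2. Nothing in the labels says that the libraries came from separate mice, so p-values measure only the spread between these libraries, which may be technical. Levels are given as CPM, each library being brought to the same effective size with edgeR's TMM factors. A gene was called in edgeR's quasi-likelihood test at a Benjamini-Hochberg adjusted p under 0.05 over all genes tested and an absolute log2 fold change over 1.

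Total counts per library were 5753476 to 29984954 (median 18741144). Within each group library 1b had counts in more genes than libraries 1a and 2. Across groups the ranges overlapped, with 29162 to 38844 genes in the 8 libraries 1b and 17132 to 32666 in the other 16. Itgad, the gene of αD, was higher in every library with the αD KO label (12.5 to 102.0 CPM) than in any with the WT label (0.0583 to 3.67 CPM). Reads were summed over the whole gene, and transcript of the targeted allele cannot be told from intact transcript. The defining neutrophil markers S100a8 (8914 to 97890 CPM) and Ly6g (18.6 to 467.9 CPM) were present in all libraries. The summed neutrophil markers (10 genes) were higher at 12 hours than at 0h, going from 29590–50150 to 118200–220300 CPM in WT blood, from 38060–54060 to 81990–144800 CPM in WT lung and from 35640–62800 to 128600–155000 CPM in αD KO blood. S100a8 and S100a9 had the highest medians of this list, and of the 10 genes 6, 3 and 4 were called higher in these comparisons, while Csf3r was called lower in each. The shares of all genes called there in either direction were 13.5%, 9.02% and 8.75%. Eosinophil and basophil markers (6 genes) went from 31.7–69.0 to 5.78–8.01 CPM in WT blood, from 56.8–124.7 to 3.53–17.5 CPM in WT lung and from 41.9–55.4 to 1.64–3.76 CPM in αD KO blood, and platelet markers (6 genes) from 42.2–127.5 to 5.99–29.2 CPM in WT blood and from 26.1–661.4 to 5.11–47.2 CPM, with overlap, in αD KO blood. In αD KO blood T and NK cell markers (10 genes) went from 15.2–436.2 to 10.2–19.1 CPM and monocyte and macrophage markers (10 genes) from 722.5–1922 to 639.9–783.7 CPM, both with overlap. Of these lists 2 of 8 and 4 of 9 genes tested were called lower there, with median log2 fold changes of −5.11 and −2.56, and 1 of 6 platelet markers (median −3.81). Among all genes tested in αD KO blood, 707 of 14156 were called lower. In WT blood the monocyte and macrophage markers were at 534.4–1513 and 603.9–1206 CPM, with 1 gene called higher and 2 lower. In WT lung they were at 725.4–1267 and 699.1–1045 CPM, also with 1 called higher and 2 lower. T and NK cell markers in WT blood went from 19.3–32.7 to 14.5–16.4 CPM, with 0 genes called. Lung structural markers (10 genes) there went from 20.15–273.9 to 16.4–18.8 CPM, with 1 called lower. Of 6 erythroid markers 1 was called lower in αD KO blood. B cell markers, summed over 8 genes, were at 269.3 to 1214 CPM in WT blood at 0h and at 41.6 to 278.5 CPM at 12 hours, with overlap, and at 330.2 to 1533 CPM and 39.0 to 147.7 CPM in αD KO blood, and in WT lung they were at 436.8 to 792.7 CPM and 35.1 to 109.9 CPM. The part of these markers in the changes with time described here was not tested. In sorted pools, fewer cells of a type and less RNA per cell cannot be told apart.

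Of the libraries labelled αD KO lung, 3 stood apart from their label. This was seen on a scale drawn from WT lung, with the mean of 0h set to 0 and that of 12 hours to 1, over 1338 genes called there and none of the 9. For the position of a WT library, that library was left out of the means. The genes were called with all WT lung libraries, so the separation of these libraries follows in part from that choice. The αD KO lung libraries labelled 0h lay at 0.155, 0.104 and 1.03 in the order 1a, 1b and 2, and those labelled 12 hours lay at 0.103, 0.827 and 0.189. The WT lung libraries lay between −0.043 and 0.113 at 0h and between 0.658 and 1.21 at 12 hours. Library 2 labelled 0h thus lay among the WT libraries of 12 hours, and libraries 1a and 2 labelled 12 hours lay close to those of 0h. Summed eosinophil and basophil markers gave the same split, with 75.3, 61.8 and 3.22 CPM under the 0h label of αD KO lung and 59.1, 7.85 and 90.2 CPM under the 12 hour label. The changes of the 9 genes with time in αD KO lung and the differences that moved most are given with and without them, whereas group means, ranges and the comparisons over all libraries for tissue and genotype include them. Since they were singled out by their expression, the values without them are a description and no test of the genotype or of time.

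Of the 9 genes, 7 were matched to promoter windows from RefSeq (assembly GRCm38.p6), each window covering 250 bases before to 50 after a transcript start given by RefSeq, with 2 windows for Pim1. Windows of Il10ra and Il17ra were not used here. The windows of Cish and Socs3 lie inside the bounds that the files give for these genes. The entries were searched for TTCNNNGAA, the paired half-sites that STAT dimers bind, which reads the same on both strands. It was present in the windows of Cish and Socs3 and in 8.3% of 32851 promoter windows of the mouse. The stricter form TTCCNGGAA was present in the Cish window alone among the 7 genes and in 1.15% of all windows, and each site of that form is also a TTCNNNGAA site. The stretches that hold the matches are shown because they are the only ones found in the windows of the 7 genes. They are printed 5′ to 3′ on the strand of the gene with the match in capitals; the Cish stretch (chr9:107296654-107296683, plus strand) overlaps an exon of the files and its matches start at bases 1 and 12 from that start, and the Socs3 stretch (chr11:117969502-117969531, minus strand) lies outside the exons of the files with its match at −154.
Cish: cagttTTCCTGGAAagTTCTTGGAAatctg
Socs3: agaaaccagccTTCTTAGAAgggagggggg
A match is a run of letters and not a measured binding site.

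The levels of the 9 genes differed widely when set per kilobase of exon. Over the 24 libraries the median was 171.6 CPM per kb for Socs3, 102.5 for Pim1, 97.2 for Il17ra and 60.3 for Stat3. It was 25.6 CPM per kb for Il10ra, 14.6 for Il6ra and 7.57 for Socs1. Cish, with 0.749 CPM per kb, and Il6st, with 0.384, were the lowest. These medians pool both times. Cish was below Il6st in WT blood at 0h (means of 0.211 and 0.5 CPM per kb) and above it at 12 hours (8.69 and 0.208), and Il10ra reached a mean of 177.4 CPM per kb in WT lung at 12 hours. Over all libraries the neutrophils held abundant transcript of the interleukin-17 receptor chain gene Il17ra, STAT3 and its targets Socs3 and Pim1, and little of the shared interleukin-6 signalling chain. Another receptor chain gene, Il17rc, was at most at 1.66 CPM. The span between the lowest and the highest library was 1950-fold in Cish, 30.7-fold in Il10ra, 24.8-fold in Il6st, 11.4-fold in Socs3, 10.1-fold in Socs1 and 3.02-fold to 4.76-fold in Pim1, Il6ra, Stat3 and Il17ra. Single libraries set the span of Cish, whose lowest value of 0.0706 CPM stands for 1 count and is followed by 0.724 CPM, and that of Il6st, whose highest value of 24.8 CPM is followed by 11.6 CPM.

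**Figure D1:**
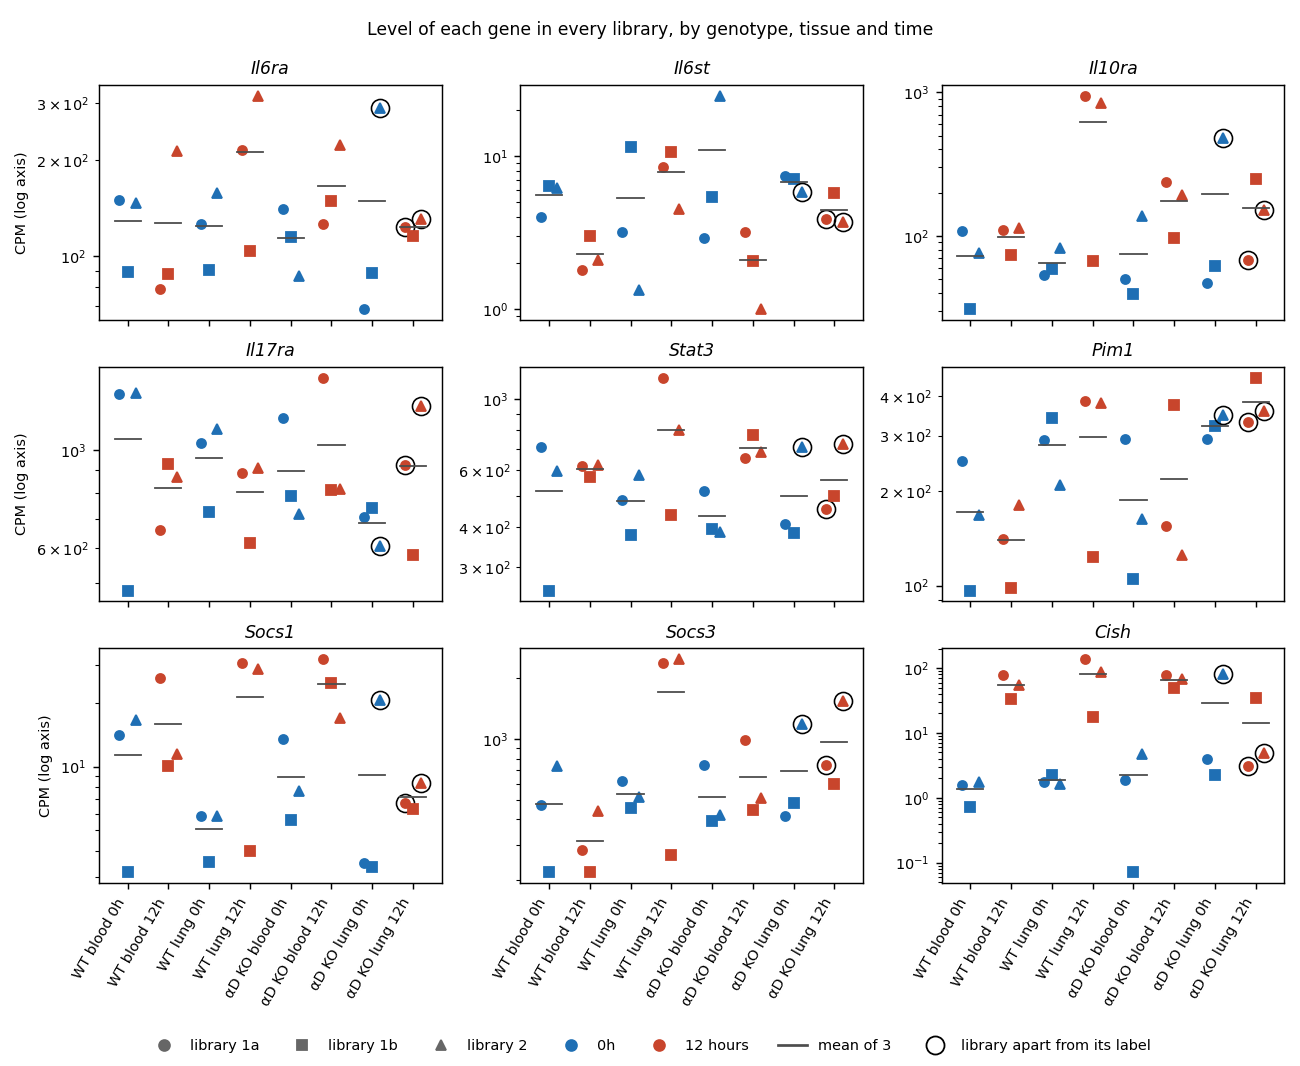
Level of each of the 9 genes in CPM (log axis) in every library, by genotype, tissue and time, with blue for 0h, red for 12 hours, circles, squares and triangles for libraries 1a, 1b and 2, a line at the mean of 3, and a ring around the 3 αD KO lung libraries that stood apart from their label. Cish separates 0h from 12 hours in WT blood, WT lung and αD KO blood, where the 0h libraries reach at most 4.71 CPM and the 12 hour libraries start at 17.6 CPM.

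Neutrophils at 12 hours after CLP were compared with those at 0h in each tissue and genotype. In blood and in WT lung, Cish was the gene of the 9 that changed most, rising from at most 4.71 CPM to at least 17.6 CPM. Il10ra rose in WT lung, with a call that depended on single libraries, and neither Stat3, Pim1, Il6ra, Il6st, Il17ra, Socs1 nor Socs3 was called in any of the 4 comparisons with time. In αD KO lung, where the labelled times and the expression profiles disagreed, none of the 9 was called.

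Cish encodes the founding member of the SOCS family, an inhibitor of STAT5 signalling. The 0h libraries of WT blood, in the order 1a, 1b and 2, had 1.56, 0.724 and 1.77 CPM, and those of 12 hours had 77.4, 34.0 and 55.8 CPM. The same order is kept below. The groups did not overlap, and the log2 fold change was 5.11 (SE 0.39, adjusted p = 0.00128), with library 1b the lowest at both times. Cish was the only one of the 9 called in this comparison, in which edgeR called 13.5% of the genes tested. Il6st also had no overlap in WT blood, which was true of 34.7% of the genes.

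In WT lung Cish was at 1.77, 2.22 and 1.62 CPM at 0h and at 137.7, 17.6 and 88.7 CPM at 12 hours. Again all 3 libraries of 12 hours were above all 3 of 0h, but library 1b rose far less than the others, and the log2 fold change was 5.26 (SE 0.64, adjusted p = 0.00545). With Il10ra, 2 of the 9 genes were called in WT lung, where 9.02% of the genes were called. Of the 9, Cish alone had no overlap there, which held for 28.5% of the genes.

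Blood of αD KO mice held Cish at 1.89, 0.0706 and 4.71 CPM at 0h and at 79.7, 49.4 and 67.5 CPM at 12 hours. With or without the value of 0.0706 CPM the groups did not overlap. That value stands for 1 count, so Cish passed the filter on low counts in this comparison only with its 12 hour libraries. The log2 fold change was 4.70 (SE 0.89, adjusted p = 0.0204), and Cish was the only one of the 9 called, against 8.75% of all genes. The rise in blood did not differ detectably between the genotypes (αD KO minus WT −0.35, SE 1.07, adjusted p = 1 in the interaction test).

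When any single library was left out, the log2 fold change of Cish was between 4.91 and 5.41 in WT blood, between 4.62 and 5.57 in WT lung and between 4.20 and 5.85 in αD KO blood, but the adjusted p was above 0.05 without some of them. It was 0.0655 in WT blood without library 2 of 12 hours. In WT lung it was 0.140 and 0.134 without libraries 1a and 2 of 0h, and 0.0722 and 0.0665 without the same libraries of 12 hours. In αD KO blood it was 0.136 without library 1a of 0h, and 0.0932 and 0.0996 without libraries 1a and 2 of 12 hours. Each of these fits has 2 libraries against 3.

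Under the 0h label of αD KO lung Cish was at 4.02, 2.23 and 80.3 CPM, and under the 12 hour label at 3.15, 34.1 and 4.90 CPM. The high and low values were mixed between the labels, and the log2 fold change was −0.68 (SE 1.42, adjusted p = 1). No gene at all was called by edgeR (0.0% of 17939 genes, with 72 at an unadjusted p under 0.05) or by DESeq2. Without the 3 libraries that stood apart, the fold change was 3.50 (SE 0.67), from 4.02 and 2.23 CPM at 0h to 34.1 CPM in the lone library of 12 hours, whose spread was taken to be that of the others. Over all groups, the 11 libraries of 0h then left had 0.0706 to 4.71 CPM and the 10 of 12 hours had 17.6 to 137.7 CPM.

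**Figure D2:**
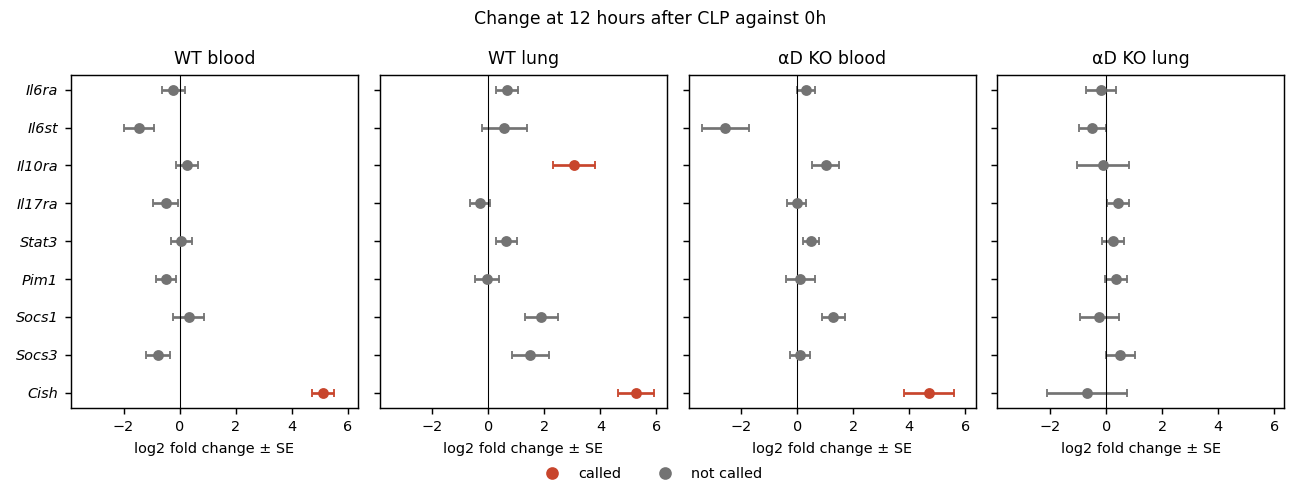
Fitted log2 fold change of each gene at 12 hours against 0h with its standard error (horizontal axis), by genotype and tissue, with called genes in red. Cish lies at 5.11, 5.26 and 4.70 in WT blood, WT lung and αD KO blood, Il10ra is called in WT lung at 3.07, and in αD KO lung all 9 genes are grey.

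Il10ra encodes the ligand-binding chain of the interleukin-10 receptor, through which interleukin-10 restrains inflammatory gene expression. In WT lung it was at 53.4, 58.2 and 82.1 CPM at 0h and at 946.3, 67.1 and 848.5 CPM at 12 hours. Libraries 1a and 2 of 12 hours were far above the rest, while library 1b lay inside the range of 0h, so the groups overlapped. The log2 fold change was 3.07 (SE 0.76, adjusted p = 0.0433), and the adjusted p was 0.0821 with the library number as a block. It was also above 0.05 (0.106 to 0.383) when any single library other than library 1b of 12 hours was left out, and 0.000459 without that library (3.46, SE 0.29), when 25.3% of all genes were called.

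Blood showed smaller shifts of Il10ra. In WT blood it was at 108.4, 30.8 and 76.2 CPM at 0h and at 108.9, 73.1 and 112.8 CPM at 12 hours, with overlap and a log2 fold change of 0.28 (SE 0.39, adjusted p = 0.669). In αD KO blood it was at 49.8, 39.3 and 136.4 CPM at 0h and at 235.7, 97.2 and 192.2 CPM at 12 hours, again with overlap (1.01, SE 0.47, adjusted p = 0.206). αD KO lung had 47.2, 61.3 and 477.2 CPM under the 0h label and 67.3, 247.9 and 150.5 CPM under the 12 hour label, so that the highest value carried the 0h label. Its fold change there was −0.11 (SE 0.93, adjusted p = 1), and 2.28 (SE 0.67) without the 3 libraries that stood apart.

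By group mean, Il10ra was highest in WT lung at 12 hours (620.6 ± 481.8 CPM, SD, n = 3), followed by αD KO lung at 0h (195.2 ± 244.3), αD KO blood at 12 hours (175.0 ± 70.8) and αD KO lung at 12 hours (155.2 ± 90.4). The remaining means were 98.3 ± 21.9 in WT blood at 12 hours, 75.2 ± 53.3 and 71.8 ± 39.0 in αD KO and WT blood at 0h, and 64.6 ± 15.4 in WT lung at 0h. Each neighbouring pair in this order, the first included, had overlapping libraries.

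Il6ra, the ligand-binding chain for interleukin-6, had group means between 113.9 ± 26.6 CPM (SD, n = 3) in αD KO blood at 0h and 211.9 ± 106.4 CPM in WT lung at 12 hours. Its log2 fold changes with time were −0.22 (SE 0.40) in WT blood, 0.66 (SE 0.38) in WT lung, 0.30 (SE 0.32) in αD KO blood and −0.17 (SE 0.54) in αD KO lung, where it was 0.64 without the 3 libraries that stood apart. In WT lung at 12 hours libraries 1a and 2 had 215.1 and 316.7 CPM against 104.0 CPM in library 1b, the same division as in Il10ra.

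Il17ra, the shared chain of the receptors for interleukin-17, was high in all groups, with means between 684.9 ± 67.9 CPM in αD KO lung at 0h and 1055 ± 496.7 CPM in WT blood at 0h. Its groups overlapped in all 4 comparisons with time, and its fold changes lay between −0.49 (SE 0.44) in WT blood and 0.43 (SE 0.38) in αD KO lung (−0.24 without the 3 libraries apart). Apart from the single lowest library, 1b of WT blood at 0h with 481.5 CPM, all libraries had at least 578.4 CPM.

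Il6st, the chain shared by receptors of the interleukin-6 family, was low. WT blood had it at 3.99, 6.43 and 6.24 CPM at 0h and at 1.81, 3.01 and 2.09 CPM at 12 hours. All libraries of 12 hours were below those of 0h, and the log2 fold change was −1.44 (SE 0.53, adjusted p = 0.117). In αD KO blood it was at 2.90, 5.44 and 24.8 CPM at 0h and at 3.21, 2.06 and 1.00 CPM at 12 hours (−2.58, SE 0.84, adjusted p = 0.093), with overlap. Il6st was called lower there by DESeq2 (−2.49, adjusted p = 0.0208, beside 12.3% of all genes) and without the filter on low counts (−2.54, adjusted p = 0.00326, beside 4.05%). In WT blood it was called lower with at least 10 counts in every library (−1.67, adjusted p = 0.0444), where 24.9% of all genes were called in either direction. The highest value, in library 2 of αD KO blood at 0h, came with summed T and NK cell markers of 436.2 CPM and platelet markers of 661.4 CPM, against 30.4 and 15.2 CPM and 566.4 and 26.1 CPM in libraries 1a and 1b of that group. The part of these cells in the Il6st value was not tested.

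In lung, Il6st was at 3.19, 11.6 and 1.34 CPM at 0h and at 8.46, 10.7 and 4.53 CPM at 12 hours in WT, with overlap and a fold change of 0.57 (SE 0.80). αD KO lung had 7.48, 7.07 and 5.83 CPM at 0h and 3.87, 5.78 and 3.72 CPM at 12 hours. These groups did not overlap, which was true of 2.86% of the genes, but the fold change was −0.50 (SE 0.48, adjusted p = 1; −0.25 without the 3 libraries apart), and 5.83 and 5.78 CPM are all but equal.

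Stat3 encodes the transcription factor that links these receptors to their target genes. WT blood had it at 709.3, 254.1 and 595.5 CPM at 0h and at 618.1, 570.3 and 622.8 CPM at 12 hours. The low value of library 1b at 0h set the spread, and the log2 fold change was 0.06 (SE 0.38, adjusted p = 0.931). In WT lung it was at 484.2, 378.9 and 579.1 CPM at 0h and at 1164, 436.3 and 800.7 CPM at 12 hours (0.64, SE 0.38, adjusted p = 0.331), with library 1b again inside the range of 0h.

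In αD KO blood Stat3 was at 517.3, 395.1 and 386.2 CPM at 0h and at 653.8, 772.2 and 684.4 CPM at 12 hours. The groups did not overlap, as for Socs1 and Cish and for 32.2% of the genes in this comparison, and the change was 0.49 (SE 0.28, adjusted p = 0.294). αD KO lung had 410.3, 382.6 and 708.2 CPM under the 0h label and 455.9, 501.3 and 726.4 CPM under the 12 hour label, with overlap, and its fold change without the 3 libraries apart was 0.42. By mean, Stat3 was highest in WT lung at 12 hours (800.5 ± 364.0 CPM), αD KO blood at 12 hours (703.5 ± 61.5) and WT blood at 12 hours (603.7 ± 29.0), and lowest in αD KO blood at 0h (432.9 ± 73.3). Of the neighbours in that order, only αD KO and WT blood at 12 hours had libraries that did not overlap.

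Pim1, a serine/threonine kinase gene that STAT3 and STAT5 activate and whose product favours survival, was at 96.3 to 292.6 CPM in blood at 0h and at 98.5 to 375.8 CPM at 12 hours. In lung it was at 208.3 to 347.7 CPM at 0h and at 123.2 to 458.9 CPM at 12 hours. Its log2 fold changes with time were within −0.49 and 0.36, with standard errors of 0.36 to 0.51, and the change in αD KO lung was 0.66 without the 3 libraries apart. Its lowest group mean was 139.8 ± 41.0 CPM in WT blood at 12 hours and its highest 382.8 ± 67.4 CPM in αD KO lung at 12 hours.

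Socs3, the main feedback inhibitor of the interleukin-6 and G-CSF receptors, was in WT lung at 622.2, 458.0 and 516.8 CPM at 0h and at 2384, 265.2 and 2484 CPM at 12 hours. Libraries 1a and 2 of 12 hours were the highest of all 24, and library 1b of the same group lay below the whole 0h group. The log2 fold change was 1.5 (SE 0.65, adjusted p = 0.183), and 1.87 (SE 0.26, adjusted p = 0.00229) without library 1b of 12 hours, when 25.3% of all genes were called. In WT blood Socs3 was at 469.5, 218.7 and 734.7 CPM at 0h and at 281.8, 219.1 and 442.1 CPM at 12 hours, with overlap and a change of −0.77 (SE 0.43, adjusted p = 0.29).

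αD KO blood had Socs3 at 743.8, 392.0 and 421.8 CPM at 0h and at 989.6, 443.1 and 511.2 CPM at 12 hours. Each library of 12 hours was above its counterpart of the same number, but the groups overlapped (0.10, SE 0.37, adjusted p = 0.888). In αD KO lung it was at 414.0, 480.8 and 1181 CPM under the 0h label and at 744.2, 597.0 and 1542 CPM under the 12 hour label (0.51, SE 0.52, adjusted p = 1, and 0.50 without the 3 libraries apart). Library 2 was the highest under both labels, unlike in Cish, where the 3 libraries that stood apart took the level of the opposite label.

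Socs1, which encodes a direct inhibitor of the JAK kinases, was in WT lung at 5.82, 3.56 and 5.83 CPM at 0h and at 30.9, 4.01 and 28.7 CPM at 12 hours. Again libraries 1a and 2 were high and library 1b was not (1.89, SE 0.58, adjusted p = 0.0807), and without that library Socs1 was called with the same 25.3% of genes (2.24, SE 0.27, adjusted p = 0.00136). αD KO blood had 13.5, 5.58 and 7.68 CPM at 0h and 32.1, 24.8 and 16.9 CPM at 12 hours, without overlap (1.28, SE 0.41, adjusted p = 0.0897). WT blood had 14.1, 3.17 and 16.6 CPM at 0h and 26.3, 10.1 and 11.5 CPM at 12 hours, with overlap (0.32, SE 0.55, adjusted p = 0.734). In αD KO lung Socs1 was at 3.50, 3.35 and 20.6 CPM under the 0h label and at 6.74, 6.33 and 8.38 CPM under the 12 hour label, so that the 1 high library carried the 0h label. Its change there without the 3 libraries apart was 0.96.

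The position of the lung libraries on the axis drawn without these genes and the levels of Cish ran together, as the plot of 3 genes against this position shows. Library 2 of αD KO lung labelled 0h, at 1.03 on the axis, had 80.3 CPM of Cish, 477.2 CPM of Il10ra and 20.6 CPM of Socs1. The WT lung libraries 1a and 2 of 12 hours, at 1.21 and 1.06, had 137.7 and 88.7 CPM of Cish. The libraries of αD KO lung labelled 12 hours that lay at 0.103 and 0.189 had 3.15 and 4.90 CPM. These points share libraries and depth with the axis, and the relation is a description.

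**Figure D3:**
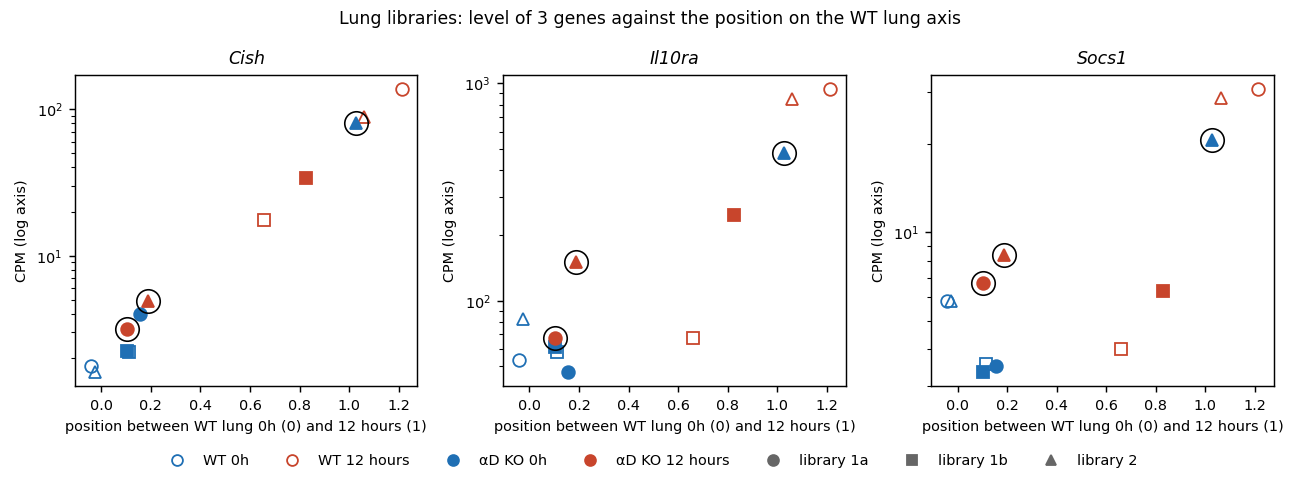
Level in CPM (log axis) of Cish, Il10ra and Socs1 in the 12 lung libraries against their position between the WT lung means of 0h (0) and 12 hours (1), with open symbols for WT, filled for αD KO, blue for 0h, red for 12 hours, circles, squares and triangles for libraries 1a, 1b and 2, and rings for the 3 libraries apart from their label. Cish is at most 4.90 CPM in the libraries at positions up to 0.189 and at least 17.6 CPM in those from 0.658, whatever their label, while the 2 libraries 1b of 12 hours have Socs1 levels of 4.01 and 6.33 CPM, near the level of the left group.

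Whether loss of αD changed these genes was asked at each time in each tissue. None of the 9 was called in any of the 4 comparisons, in which edgeR called 0.0115% of the genes in blood at 0h and 0.0% in blood at 12 hours, in lung at 0h and in lung at 12 hours. In the last 3, 505, 340 and 1390 genes had an unadjusted p under 0.05. By DESeq2 14, 7 and 154 genes were called there, none of them among the 9. In blood at 0h the log2 fold changes of αD KO against WT were between −0.29 (Socs1, SE 0.56) and 0.86 (Il6st, SE 0.80), and all 9 genes overlapped between the genotypes, while 2.99% of all genes did not.

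In blood at 12 hours the log2 fold changes were above 0 in 8 of the 9 genes, with a median of 0.41 beside 0.03 over all genes tested. Socs3 was at 989.6, 443.1 and 511.2 CPM in αD KO and at 281.8, 219.1 and 442.1 CPM in WT. The groups did not overlap, though 443.1 and 442.1 CPM nearly touch, and the log2 fold change was 1.04 (SE 0.35, adjusted p = 0.962). Stat3 did not overlap either, at 653.8 to 772.2 CPM in αD KO and 570.3 to 622.8 CPM in WT (0.23, SE 0.26, adjusted p = 0.966). The share of all genes without overlap in this comparison was 7.93%. Il10ra was fitted 0.81 higher in αD KO (SE 0.30, adjusted p = 0.962) with overlapping libraries, and Cish 0.26 higher (SE 0.27, adjusted p = 0.965).

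In lung at 0h Cish was fitted 3.76 higher in αD KO (SE 1.28, adjusted p = 0.983). Its αD KO libraries, at 4.02, 2.23 and 80.3 CPM, lay above the WT libraries at 1.62 to 2.22 CPM, by a hair in library 1b, and such a lack of overlap was found in 6.85% of the genes. The difference was 0.80 without library 2 of αD KO lung. In the same way the difference of Il10ra went from 1.45 (SE 0.81) to −0.21, and that of Socs1 from 0.75 (SE 0.68) to −0.52.

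In lung at 12 hours the differences of αD KO against WT were −2.14 (SE 1.03, adjusted p = 0.612) in Cish, −1.65 (SE 0.87, adjusted p = 0.631) in Il10ra and −1.29 (SE 0.61, adjusted p = 0.61) in Socs1. All 9 genes overlapped between the genotypes, while 10% of all genes did not. Libraries 1a and 2 of αD KO stood apart from their label. Without these, with a single αD KO library left (1b), the differences of Cish and Il10ra were smaller (−0.87 and −0.93), that of Socs1 was not (−1.36), and none was called. It had 34.1 CPM of Cish and 247.9 CPM of Il10ra against 17.6 and 67.1 CPM in library 1b of WT, and was thus above the WT library of its own number. With libraries 1a and 2 alone in both genotypes, the same 3 genes were called lower in αD KO, near the share of 30.1% of all genes called then, all of the αD KO libraries then being those that stood apart.

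**Figure D4:**
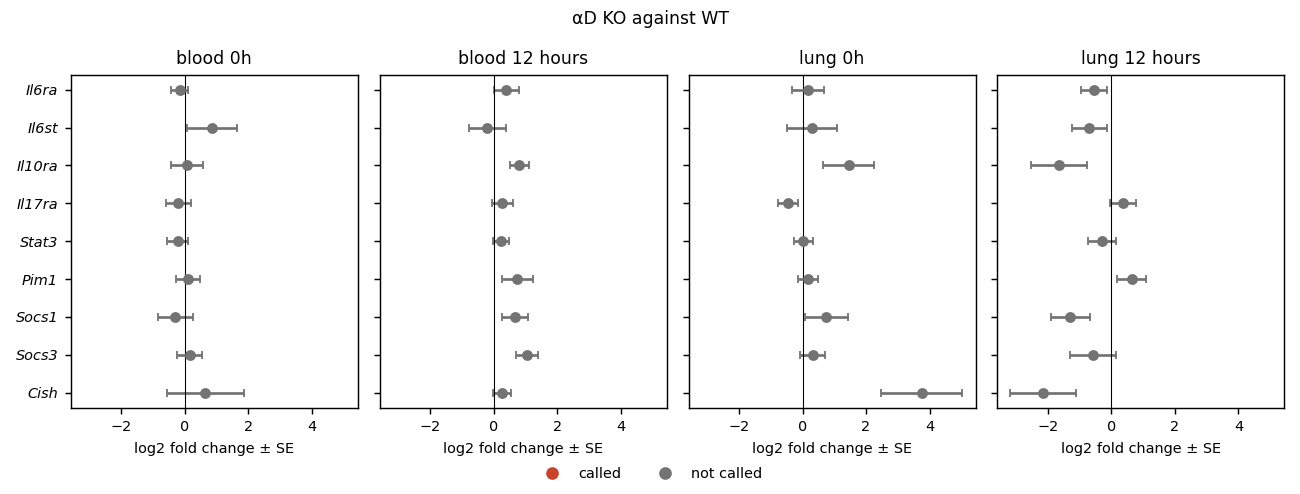
Fitted log2 fold change of αD KO against WT with its standard error (horizontal axis) for the 9 genes in blood and lung at 0h and 12 hours; no gene is called. The widest differences, those of Cish at 3.76 in lung at 0h and −2.14 in lung at 12 hours, have opposite signs and are 0.80 and −0.87 without the libraries that stood apart from their label.

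The difference between genotypes in the change with time was tested as an interaction. In blood it was between −1.02 (Il6st, SE 1.01) and 1.11 (Socs1, SE 0.87), with an adjusted p of 1 for all 9. In lung it was −6.05 in Cish (SE 1.79, adjusted p = 0.41), −3.23 in Il10ra (SE 1.31, adjusted p = 0.422) and −2.11 in Socs1 (SE 1.00, adjusted p = 0.49). edgeR called no gene in either (0.0%), and 232 and 2432 genes had an unadjusted p under 0.05. By DESeq2 1 gene was called in blood and 316 in lung, Cish among the latter (−5.94, adjusted p = 0.0256, beside 2.7% of all genes). Without the 3 libraries that stood apart the lung values were −1.64, −0.74 and −0.87.

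Neutrophils of WT lung and blood were compared at each time. At 0h none of the 9 was called by edgeR (0.0% of all genes, with 406 at an unadjusted p under 0.05) or by DESeq2, which called 44 genes. All 9 overlapped between the tissues, where 5.72% of all genes did not, and the widest log2 fold changes of lung against blood were −1.16 in Socs1 (SE 0.48, adjusted p = 0.999) and 0.68 in Pim1 (SE 0.34, adjusted p = 0.999).

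At 12 hours edgeR again called none of the 9, and 0.0442% of all genes. Il10ra was fitted 2.57 higher in lung (SE 0.70, adjusted p = 0.15), Socs3 2.38 higher (SE 0.64, adjusted p = 0.15), Il6st 1.92 higher (SE 0.59, adjusted p = 0.177) and Pim1 1.09 higher (SE 0.36, adjusted p = 0.19). Without library 1b of WT lung, Il10ra (3.06, adjusted p = 0.0014), Socs3 (2.83, adjusted p = 0.00271) and Pim1 (1.33, adjusted p = 0.0132) were called, as were 20.2% of all genes. Of the 4 only Il6st did not overlap in the full groups, at 4.53 to 10.7 CPM in lung and 1.81 to 3.01 CPM in blood, and 22.4% of all genes had no overlap. DESeq2 called Socs3 (2.46, adjusted p = 0.00347), Il10ra (2.65, adjusted p = 0.00335) and Il6st (1.94, adjusted p = 0.0388), and 7.23% of all genes. Lung structural markers summed to 88.0, 341.8 and 337.7 CPM in the WT lung libraries of 12 hours and to 16.4 to 18.8 CPM in blood, and their part in the Il6st difference was not tested.

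The difference between WT lung and blood in the change with time was 2.72 in Il10ra (SE 0.97) and 2.19 in Socs3 (SE 0.89), both with an adjusted p of 0.876, and 0.03 in Cish (SE 0.81, adjusted p = 0.993). edgeR called no gene (0.0%), while 1290 had an unadjusted p under 0.05. By DESeq2 92 genes were called, none of them among the 9. The median over all genes was itself 0.56 in this interaction, and 0.73 with RLE in place of TMM factors. With libraries 1a and 2 alone, Socs1, Socs3, Il6st and Il10ra were called, beside 7.41% of all genes, and without library 1b of WT lung at 12 hours alone Il10ra was (3.20, SE 0.51, adjusted p = 0.0291), beside 0.68%.

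Over all 24 libraries, with terms for genotype, tissue and time, Cish was 4.21 higher at 12 hours (SE 0.99, adjusted p = 0.0155) and the other 8 genes were not called, against 5.17% of all genes. Cish was not called with the files of sample 1 summed, when 3 genes were called in all, nor with libraries 1a and 2 alone, when none was. It was untested where each library needed 10 counts. Without the 3 αD KO lung libraries apart from their label the fitted values were 5.0 in Cish, 1.72 in Il10ra and 1.23 in Socs1. These are no test of time, since libraries that ran against their time label were left out, and the share of all genes past the threshold went to 10.2% with them gone. The library number was not checked as a pairing over all 24 libraries. With it as a block, Socs1 (1.03, adjusted p = 0.0422) and Il10ra (1.29, adjusted p = 0.0416) were also called, beside 8.22%. The median of all genes was −0.48 in this comparison and −0.61 with RLE factors. No member was called for tissue (0.91% of all genes) or for genotype (0.0442%). Pim1 was 0.85 higher in lung (SE 0.23, adjusted p = 0.0854).

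Other genes of the route were read from lists written from general knowledge, but chosen with earlier results of these data known. Among 4 JAK kinase genes, Jak3, which serves receptors with the common gamma chain, rose in WT blood (2.11, SE 0.34, adjusted p = 0.00894), WT lung (1.57, SE 0.29, adjusted p = 0.0206) and αD KO blood (1.65, SE 0.43, adjusted p = 0.0495). Its 3 libraries of WT blood lay between 12.2 and 29.9 CPM at 0h and between 93.6 and 133.1 CPM at 12 hours. Jak1, Jak2 and Tyk2 were not called. Among other STAT genes, Stat4 fell in WT lung (−1.11, adjusted p = 0.0448) and was not called in blood of either genotype.

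Of 15 further SOCS and negative regulator genes, 1 rose in WT blood, 2 rose in WT lung, and 1 rose and 1 fell in αD KO blood. Over all genes tested, 13.5%, 9.02% and 8.75% were called in these comparisons, and the counts of 1 or 2 in 15 are near those shares. They were the tyrosine phosphatase genes Ptpn11 (1.33 in WT blood and 1.57 in WT lung) and Ptpn1 (1.77 in WT lung and 1.26 in αD KO blood), and Socs5, which fell by 3.11 in αD KO blood. Socs5 was low there, at 2.61, 3.67 and 1.82 CPM at 0h and at 0.500, 0.269 and 0.357 CPM at 12 hours. It passed the filter on low counts only through its 0h libraries. Of the other 2 PIM kinase genes, Pim2 rose in WT lung (4.14, adjusted p = 0.021) and in αD KO blood (2.94, adjusted p = 0.0335). Pim3 was called lower in WT blood with overlapping libraries.

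Of 20 other cytokine receptor chain genes, 19 were tested in each of the 3 comparisons. In WT blood 2 rose and 1 fell, in WT lung 2 rose and 1 fell, and in αD KO blood 1 rose and 2 fell, beside 13.5%, 9.02% and 8.75% of all genes called in either direction. Csf3r, the G-CSF receptor, fell in all 3, by 2.58, 1.81 and 2.37 on the log2 scale. In WT blood it was at 10920, 4366 and 11370 CPM at 0h and at 1457, 1020 and 2605 CPM at 12 hours, with all libraries of 12 hours below those of 0h. Il2rg, the common gamma chain, rose in WT blood (3.11) and WT lung (3.50), Csf2rb, the common beta chain, in WT blood (1.42), and Il4ra in WT lung (2.13) and αD KO blood (1.58). Il12rb2, an interleukin-12 receptor chain of T and NK cells, fell in αD KO blood (−3.63), from 1.22, 1.69 and 9.05 CPM. The highest of these values was in library 2, where T and NK cell markers summed to 436.2 CPM against 30.4 and 15.2 CPM in libraries 1a and 1b, and their part was not tested.

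Of 15 cytokine ligand genes, 6 were tested in WT blood, 8 in WT lung and 6 in αD KO blood. The filter on low counts used the groups compared. A ligand near 0 CPM at 1 time was thus tested only through the group where it was high. Its call is not independent of that filter. Il10 rose in WT blood (6.22) and WT lung (8.08), and in WT lung went from 0.188, 0.465 and 0.526 CPM to 287.8, 3.21 and 85.2 CPM. As for Il10ra, library 1b was the lowest of 12 hours. Csf3, which encodes G-CSF, rose in WT blood (6.17), WT lung (9.0) and αD KO blood (4.45). Ebi3 rose in WT lung (2.03) and αD KO blood (1.45) and Il27 in WT blood (1.62), while Il4 fell in αD KO blood (−5.18). Summed eosinophil and basophil markers went from 41.9–55.4 CPM at 0h to 1.64–3.76 CPM at 12 hours in αD KO blood. T and NK cell markers were at 30.4, 15.2 and 436.2 CPM at 0h there. The part of these cells in the Il4 change was not tested.

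Of 18 other genes known as STAT3 targets, 4 rose and 3 fell in WT blood, 5 of 17 tested rose in WT lung, and 5 rose and 1 fell among 17 tested in αD KO blood, beside the same 13.5%, 9.02% and 8.75% of all genes. Il4ra is on this list and on that of the receptors. Lcn2, which encodes an iron-siderophore binding granule protein, rose by 5.29, 5.66 and 3.51 on the log2 scale. Its libraries of WT lung lay between 358.4 and 783.5 CPM at 0h and between 14160 and 38950 CPM at 12 hours. Lrg1 rose in all 3 (2.85, 2.88 and 1.93), and so did Bcl2l1, a survival gene (1.65, 3.14 and 1.53). Bcl3 rose by 2.33 in WT lung, and Hif1a by 1.57 in WT blood and 1.92 in αD KO blood. The immediate early genes Fos (−3.34 in WT blood and −2.02 in αD KO blood) and Junb (−2.29 in WT blood) fell, as did Cebpd, a transcription factor gene of myeloid cells, in WT blood (−1.97). Most of these targets answer to other factors too, and the counts do not tell which.

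The median log2 fold change of the STAT3 target list was 0.37 in WT blood, 1.45 in WT lung and 0.51 in αD KO blood, beside −0.15, 0.03 and −0.14 over all genes tested. The same medians over the 9 genes were −0.22, 0.67 and 0.30. In αD KO lung no gene of these lists was called.

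**Figure D5:**
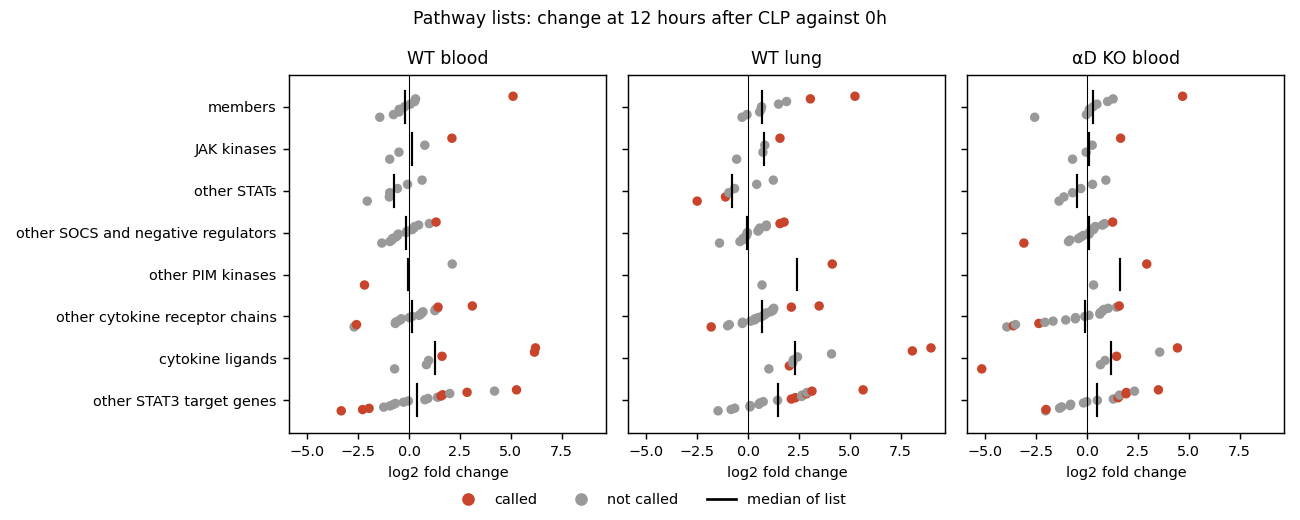
Log2 fold change at 12 hours against 0h (horizontal axis) of each gene of the pathway lists and of the 9 genes (members) in WT blood, WT lung and αD KO blood, with called genes in red and a bar at the median of each list. Cytokine ligand and STAT3 target genes spread widest, from Fos at −3.34 to Il10 at 6.22 in WT blood, and the median of the targets is 1.45 in WT lung.

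Patterns over the 24 libraries were compared by Pearson's r of log2 CPM, as a description, since libraries share group, depth and preparation. Among pairs of the 9 genes, Stat3 and Socs1 had the highest r (0.841), followed by Stat3 and Il10ra (0.767), Socs3 and Il10ra (0.755) and Cish and Il10ra (0.753). Spearman's rho was 0.861, 0.754, 0.563 and 0.793 in the same order, and r over the 16 libraries 1a and 2 was 0.733, 0.786, 0.731 and 0.778. Among 6637 genes with a mean of at least 10 CPM, those most like Il10ra were Rubcnl (0.954), Tnfrsf1b (0.953) and Nfkbie (0.950), and those most like Socs3 were Themis2 (0.941), Smox (0.937) and Sbno2 (0.925). Stat3 was most like Iqgap1, Lrrfip1 and Pgs1 (0.936, 0.936 and 0.934), and Il6ra most like Lrrc25, Tmbim6 and Stk10 (0.892, 0.858 and 0.848).

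The genes lie on 7 chromosomes of GRCm38, with Stat3 (100885098 to 100939540) and Socs3 (117966079 to 117970047) on chromosome 11 and Cish (107296026 to 107302784) and Il10ra (45253837 to 45269149) on chromosome 9. Socs1 lies on chromosome 16 (10783808 to 10785536), Pim1 on 17 (29490812 to 29496111), Il6ra on 3 (89864059 to 89913196), Il6st on 13 (112464070 to 112510086) and Il17ra on 6 (120463247 to 120487559). Counts were taken over all exons of a gene, coding and untranslated. Exons of Stat3 overlap those of Stat5a on the opposite strand, which had 14.5 to 144.7 CPM, and exons of Pim1 those of Gm26885 (4.27 to 76.9 CPM). Exons of Il6ra overlap those of Gm42809 (0.817 to 5.90 CPM) and exons of Cish those of Gm17040 (at most 0.846 CPM). Strand use in counting is not given in the sources used here, so reads from the shared stretches cannot be told apart.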

How the data were processed

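RNA of sorted neutrophils from 16 samples in 8 groups was sequenced, with 24 count files. Per the submitters' processing notes, reads were trimmed with Trimmomatic 0.36 and mapped with STAR 2.5.2b to GRCm38 (mm10), and the authors counted unique reads within exons. The authors deposited the raw counts of 49315 genes as whole numbers, without normalization or filter. The counting program and its use of strand are not given in the sources used here. Symbols were matched to the Ensembl identifiers for 48970 genes, and the coordinates of 44772 equal a GRCm38 annotation. cDNA was amplified without molecular identifiers, so precision set by depth covers counting error only.

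Files were grouped by label. Both files of sample 1 were compared in each group over genes with at least 10 counts, and chi-square over its degrees of freedom was 63.5 to 328.5, above sampling noise, so each file was taken as a library. edgeR 4.0.16 (R 4.3.3, limma 3.58.1) was run with TMM factors, filterByExpr and the two-sided quasi-likelihood test, fitting just the groups of each comparison. CPM used TMM factors over 24 libraries, and log2 CPM a prior count of 1. For 1 gene in 3 against 3 libraries, the smallest p of an exact permutation test is 0.1, so none was run. The fit was tested on simulated counts with 200 changed genes. Tables and plots used Python 3.11.15, pandas 2.3.3, numpy 2.4.6 and matplotlib 3.10.9.

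The library number was checked as a pairing by the correlation of same-numbered deviations from the group means across genes. It was above 0.1 for every number in all comparisons of 2 groups and all interactions except αD KO against WT lung at 0h (0.060 for 1a) and the lung interaction (−0.118 for 1a). The pairing thus comes from the data, since the labels give only numbers, and the main fits are without it.

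Alternatives were RLE factors, no filter, at least 10 counts in every library, DESeq2 1.42.0, sample 1 files summed, the library number as a block, all 8 groups in the fit, the adjusted p alone, each library left out, and the 3 αD KO lung libraries left out. Libraries 1a and 2 alone was chosen after seeing the data. The 9 genes, the 7 pathway lists and the marker lists (neutrophil, monocyte and macrophage, B cell, T and NK cell, platelet, erythroid, eosinophil and basophil, and lung structural) were chosen with earlier results of these data known. All 9 genes were named in every comparison, and of each pathway list at most the 4 called genes per comparison with the largest absolute log2 fold change and no overlap. Pim3, Hif1a and Cebpd in WT blood, Bcl2l1 in blood and Il17rc were named outside this rule, after their values were seen. A gene that this rule would name is not reported here. Genes most like Stat3, Socs3, Il6ra and Il10ra were the 3 with the highest r.

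Over the 24 libraries the summed monocyte and macrophage markers were at 534.4 to 1922 CPM, T and NK cell markers at 7.78 to 436.2 CPM, platelet markers at 3.65 to 661.4 CPM, erythroid markers at 27.4 to 9089 CPM and lung structural markers at 6.54 to 916.4 CPM.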

Additional observations from a re-analysis of the deposited data

How the results depend on the processing

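Of 244 counts of called genes among the 9 under an alternative, 209 stayed within 1.5 times the main count. In WT blood (1 gene), libraries 1a and 2 alone gave 2 (Cish, and Il17ra called lower), and the minimum of 10 counts gave 1, but this was Il6st called lower, with Cish untested. In WT lung (2 genes), summing the files of sample 1 and libraries 1a and 2 alone each gave 4 (Socs1, Socs3, Cish and Il10ra), while 2337 of 19014 and 5299 of 14258 genes were called in all, and the replicate block and the fit of all 8 groups each gave 1 (Cish). In αD KO blood (1 gene), no filter gave 2 (Cish, and Il6st called lower), DESeq2 3 (Socs1, Cish, and Il6st called lower), and both the minimum of 10 counts, which leaves Cish untested, and the fit of all 8 groups gave 0. Without the 3 αD KO lung libraries apart from their label, 2 genes passed the threshold in αD KO lung (Cish, reversed to 3.50, and Il10ra, reversed to 2.28, with 1 library left at 12 hours) and 3 over all libraries with time. These libraries were left out because their expression ran against their time label, so these counts and signs follow from that choice and are no test. Over all libraries with time (1 gene), the replicate block gave 3, and the minimum of 10 counts, summed files and libraries 1a and 2 alone gave 0. In WT lung against blood at 12 hours (0 genes), no filter and summed files each gave 2, DESeq2 3 and libraries 1a and 2 alone 4, with 650, 748, 876 and 3779 genes called in all. Libraries 1a and 2 alone also gave 3 in αD KO against WT lung at 12 hours, 4 in the WT interaction and 2 in the lung interaction, with 4686, 1167 and 2480 genes called in all. DESeq2 gave 1 in the lung interaction. The causes were not tested. The replicate block changed no other count of called genes among the 9.

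With each library left out in turn, the counts ranged from 0 to 1 in WT blood, αD KO blood and the WT interaction, from 0 to 4 in WT lung and from 0 to 3 in WT lung against blood at 12 hours, and were 0 in the other comparisons of 2 groups and interactions. Of 2043 values of single genes, 41 gained and 18 lost a call, and 134 others changed sign without a call. With RLE factors 3 of 72 group means moved by over 1 SD, to 542.9 CPM for Stat3 in WT blood and 630.7 CPM in αD KO blood at 12 hours and to 133.5 CPM for Il6ra in αD KO lung at 12 hours.

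The highest of these counts in WT lung, in lung against blood at 12 hours and in the WT interaction came without library 1b of WT lung at 12 hours, and edgeR called Socs1, Socs3 and Pim1 there without it and not in the full groups. Socs1 and Socs3 were also called with it kept, under summed files or by DESeq2.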
